A study of Mus musculus with 20 samples.

Results

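The 10 genes Ptgs1, Ptgs2, Ptges, Ptges2, Ptgds, Ptger3, Ptger4, Hpgd, Pla2g4a and Pla2g4e encode enzymes and receptors of the prostaglandin pathway. Each was represented by the probe set that carried its symbol alone, and by the brightest such probe set over the 20 arrays where a gene had several. A probe set is the group of short DNA probes on the array that reads 1 transcript. A single-symbol probe set was found for 9 of the 10 genes, among 18704 genes that had one. Each of the 9 had 1 probe set, so brightness decided nothing, and Ptgs1, the constitutive cyclooxygenase, was not analysed here. All 9 lay above the dim level, a log2 intensity of 7.04, and were among the 14129 genes tested. The list was chosen by pathway with earlier results of these arrays known, among them those of Ptgs2 at 1 day and Pla2g4e at 4 days, and those differences in log2 intensity are a description and not independent evidence.

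RNA of the hypothalamus was measured in male C57BL/6J mice with diet-induced obesity, on 1 array per sample. From the age of 4 weeks they ate a 45% fat diet, for 16 weeks in all. They then received intraperitoneal celastrol, a plant triterpenoid dissolved in DMSO, or DMSO (dimethyl sulfoxide) as the vehicle, and the comparison asks what the compound did to hypothalamic transcripts. There were 4 celastrol samples of 6 h, 4 of 1 day and 3 of 4 days, with 3 DMSO samples for each time. The labels state a dose of 250 µg/kg beside the 6 h time only. They give 25 µl of DMSO per day for both treatments, and a volume of 100 µl for celastrol alone, so the injected volume may have differed between the groups. Samples of a group are labelled as biological replicates, with no animal named, so p-values measure the spread between these samples.

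Prostaglandins are short-lived lipid signals. Cytosolic phospholipase A2 frees arachidonic acid from membrane phospholipids, a cyclooxygenase converts it to prostaglandin H2, and terminal synthases turn that into prostaglandin E2, D2 and others, which act on G protein-coupled receptors until dehydrogenases inactivate them. In the hypothalamus, prostaglandin E2 made by cells of the brain's blood vessels and acting on the EP3 receptor is known as a signal of fever, and prostaglandin D2 as one of sleep.

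Of the 9 genes, the inducible cyclooxygenase Ptgs2 rose at 1 day after celastrol and the phospholipase Pla2g4e rose at 4 days. No other gene of the 9 passed the threshold at any time. At 6 h, 5 of the 9 were higher with celastrol, as were 41.7% of all genes tested, and 0 passed, as in 0% of all genes. An unadjusted p under 0.05 was reached by 0 of the 9 at 6 h. Over all genes it was reached by 7.55% at 6 h, 8.19% at 1 day and 6.53% at 4 days, which stand beside each such count of a gene list below. At 1 day, 7 were higher, as were 53.8% of all genes, and 1 passed, against 0.425% of all genes (0.361% upward). At 4 days, 6 were higher, as were 54.4% of all genes, and 1 passed, against 0.0637% (0.0425% upward). The median difference of the 9 genes, celastrol minus DMSO on the log2 scale, was 0.01 at 6 h, 0.03 at 1 day and 0.04 at 4 days, beside medians over all genes of -0.01, 0.01 and 0.01. Of all genes called at 1 day, 51 were higher and 9 lower, and the split was 38 to 18 after median centring of the arrays and 45 to 19 after a further quantile normalization. At each time the celastrol arrays of 2 of the 9 genes lay above all DMSO arrays, namely Ptgs2 and Ptges at 6 h, Ptgs2 and Ptger3 at 1 day, and Ptgs2 and Pla2g4e at 4 days. The same held for 1.91%, 4.69% and 8.89% of all genes.

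**Figure D1:**
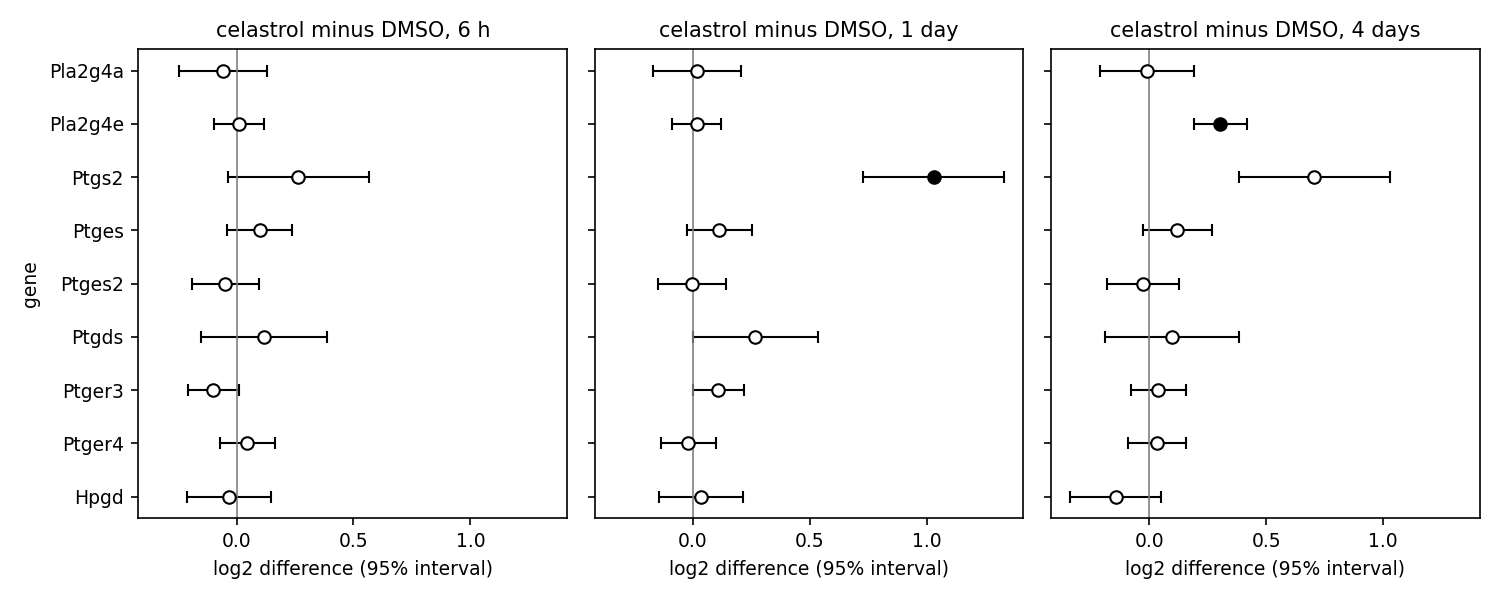
Log2 difference, celastrol minus DMSO, of the 9 genes (rows, in the order of the pathway) at 6 h, 1 day and 4 days, with 95% intervals from the fit over all 20 arrays. Filled points passed an adjusted p of 0.05: Ptgs2 at 1 day (1.03) and Pla2g4e at 4 days (0.31), while the intervals of Ptgs2 lie to the right of the other genes' points at 1 day and at 4 days.

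Some facts of the whole series bear on these values. Of 16 hypothalamic marker genes listed, among them Pomc, Npy, Avp, Oxt and Hcrt, 15 had a probe set and all 15 lay above the dim level, and their mean ran between 10.27 and 10.45 over all arrays. On the leading component of the residuals, which held 25% of them, DMSO replicate 3 of 6 h (11.4) and DMSO replicate 3 of 1 day (9.61) stood apart from the other arrays (-6.13 to 5.32). Celastrol replicate 2 of 1 day stood out for markers of the meninges, the membranes around the brain, as given below with Ptgds. In samples of whole tissue, fewer cells of a type and less RNA per cell cannot be told apart. The comparisons between times share arrays with those at each time, so they are not separate evidence.

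The pathway begins with the cytosolic phospholipases. Pla2g4e is a calcium-dependent member of the group IV phospholipases and is known as an N-acyltransferase that makes precursors of N-acylethanolamines in the brain, which sets it apart from Pla2g4a, the arachidonate-selective enzyme that supplies cyclooxygenases. The transcript of Pla2g4e was read by probe set 10486403, and its gene lies on chromosome 2 beside Pla2g4d. Its upstream sequence is shown because Pla2g4e is 1 of the 2 genes that passed. The 250 bases before the RefSeq start, chr2:120245336-120245585 on the minus strand of GRCm38.p6, read, with a C/EBP match in capitals:
Pla2g4e upstream: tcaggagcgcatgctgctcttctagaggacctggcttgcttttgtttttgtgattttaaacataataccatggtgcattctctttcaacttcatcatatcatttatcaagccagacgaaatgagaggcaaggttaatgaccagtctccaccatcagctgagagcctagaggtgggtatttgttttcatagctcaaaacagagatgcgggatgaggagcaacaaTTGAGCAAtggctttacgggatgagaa
At 4 days Pla2g4e measured 8.22, 8.09 and 8.11 on the celastrol arrays (mean 8.14 ± 0.07 SD, n = 3), against 7.81, 7.91 and 7.78 on the DMSO arrays (7.83 ± 0.07, n = 3). Every celastrol array was above every DMSO array. The difference was 0.31 ± 0.05 (standard error) on the log2 scale, or 1.24-fold with a 95% interval of 1.14 to 1.34, and passed the threshold (limma adjusted p = 0.0413), the gene ranking 5 by p among all genes tested.

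At the earlier times the groups of Pla2g4e overlapped. At 6 h it measured 8.02, 7.98, 7.90 and 7.96 with celastrol, against 8.03, 7.89 and 7.94 with DMSO, a difference of 0.01 ± 0.05 (adjusted p = 0.962). At 1 day it measured 7.97, 7.97, 7.95 and 7.83 with celastrol, against 7.90, 7.88 and 7.95 with DMSO, a difference of 0.02 ± 0.05 (adjusted p = 0.967). In the order of the group means, celastrol at 4 days stood highest and did not overlap the next group, celastrol at 6 h, while each later neighbour in the order overlapped the one before it, down to DMSO at 4 days. The effect at 4 days exceeded that at 6 h by 0.29 ± 0.07 (adjusted p = 0.569) and that at 1 day by 0.29 ± 0.07 (adjusted p = 1), which did not pass. DMSO at 4 days minus DMSO at 6 h was -0.12 (adjusted p = 0.452). The call at 4 days rests on few arrays: it was lost in 15 of 20 fits that each left out 1 array (adjusted p 0.0506 to 0.349), and kept without celastrol replicate 3 of 6 h, without any 1 of the DMSO arrays of 6 h, or without DMSO replicate 3 of 1 day. It was also lost with dim probe sets kept in (adjusted p = 0.0781), with the arrays quantile normalized again (0.0556), with only the groups compared in the fit (0.301) and without the 2 arrays that stood apart (0.0501).

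Pla2g4a ran between 7.19 and 7.63 over all arrays and its groups overlapped at every time. Its differences were -0.06 at 6 h, 0.02 at 1 day and -0.01 at 4 days, and none passed. It is the direct neighbour of Ptgs2 on chromosome 1.

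Ptgs2 encodes cyclooxygenase-2, the inducible and rate-limiting enzyme of prostaglandin synthesis, which neurons also express without a stimulus. It was read by probe set 10350516. Its promoter region is shown because Ptgs2 gave the largest difference of the 9 genes. The 250 bases before the RefSeq start, chr1:150099781-150100030 on the plus strand of GRCm38.p6, hold in capitals a C/EBP match at positions -69 to -62 from the start, and a run in which a second C/EBP match (-25 to -18) overlaps an NF-kB match (-23 to -14). The 30-base stretch after the start, chr1:150100035-150100064, holds the core of a cAMP response element (positions 14 to 18, read on the minus strand) that overlaps an E-box (17 to 22), also in capitals.
Ptgs2 upstream: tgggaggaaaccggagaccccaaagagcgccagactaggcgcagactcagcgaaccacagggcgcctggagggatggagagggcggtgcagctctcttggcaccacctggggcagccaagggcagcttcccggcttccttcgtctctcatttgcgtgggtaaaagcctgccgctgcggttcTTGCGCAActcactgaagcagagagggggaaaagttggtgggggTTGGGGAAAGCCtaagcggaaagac
Ptgs2 after the start: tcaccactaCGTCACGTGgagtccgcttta
The motifs were searched on both strands of RefSeq windows of 300 bases around the start, as TTNNGNAA for C/EBP, GGG and CC with 5 bases between them for NF-kB, TGACG for the core of the cAMP response element, CACGTG for the E-box, TATAA for a TATA box core and GNACA and TGTNC with 3 bases between them for the glucocorticoid response element. Of 32851 such windows, 40.7% held the C/EBP letters, 50.8% the NF-kB letters, 20.8% TGACG, 7.15% CACGTG, 24.9% TATAA and 0.475% the glucocorticoid element. Ptgs2 had 2 C/EBP matches and 1 each of the NF-kB, cAMP and E-box letters, and Pla2g4e had 1 C/EBP match at -27 to -20. Neither window held TATAA or the glucocorticoid element. These are letter matches and not measured binding. Positions are counted from the RefSeq start, which was not checked against a measured start of transcription, and bases outside the windows were not searched.

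At 1 day Ptgs2 measured 8.37, 8.88, 8.81 and 8.69 with celastrol (mean 8.69 ± 0.23 SD, n = 4), against 7.46, 7.76 and 7.74 with DMSO (7.66 ± 0.17, n = 3). The lowest celastrol array was well above the highest DMSO array. The difference was 1.03 ± 0.14, or 2.04-fold with a 95% interval of 1.66 to 2.52 (limma adjusted p = 0.00243, rank 5 by p among all genes tested). It passed in all 20 fits that left out 1 array, with differences of 0.93 to 1.14 and adjusted p of 0.000416 to 0.0314.

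At 4 days Ptgs2 measured 8.40, 8.24 and 8.85 with celastrol (mean 8.49 ± 0.32, n = 3), against 7.67, 7.69 and 7.998 with DMSO (7.79 ± 0.18, n = 3). The groups did not overlap, and celastrol replicate 3 was the high array. The difference of 0.71 ± 0.15, 1.63-fold with a 95% interval of 1.31 to 2.04, did not pass after adjustment over all genes (adjusted p = 0.151, unadjusted 0.000203, rank 19). At 6 h Ptgs2 measured 8.19, 8.23, 8.62 and 8.21 with celastrol (mean 8.31 ± 0.21, n = 4), against 7.90, 8.09 and 8.15 with DMSO (8.05 ± 0.13, n = 3). The groups did not overlap here either, but the gap between them was narrow and replicate 3 lay far above the other 3 celastrol arrays. The difference of 0.26 ± 0.14 did not pass (adjusted p = 0.687).

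Celastrol arrays lay above all DMSO arrays at each of the 3 times for 3 of the 14129 genes, 0.0212%: Ptgs2, Bcl2l1, an inhibitor of apoptosis, and Tbc1d2b. The differences of Bcl2l1 were 0.16, 0.24 and 0.15 at 6 h, 1 day and 4 days (adjusted p 0.604, 0.0825 and 0.703). Those of Tbc1d2b were 0.10, 0.18 and 0.21 (adjusted p 0.675, 0.262 and 0.42), so of the 3 genes only Ptgs2 passed at any time.

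The order of the Ptgs2 group means ran from celastrol at 1 day, 4 days and 6 h to DMSO at 6 h, 4 days and 1 day. Neighbours in this order overlapped, except that celastrol at 6 h and DMSO at 6 h did not. Between 6 h and 1 day the means of the treatments differed in opposite directions, by 0.38 in celastrol and by -0.39 in DMSO (1 day minus 6 h). The DMSO time difference did not pass (adjusted p = 0.298). DMSO arrays of 6 h and 1 day with the same replicate number deviated together, though no label links them and replicate 3 stood apart at both times. Within those pairs, chosen after seeing the data, Ptgs2 differed by -0.44, -0.33 and -0.41. With the pairs as a block it did not pass either (adjusted p = 0.0661 with only these 2 groups in the limma fit and 0.231 with all 6). The difference in celastrol was not tested on its own. The celastrol effect at 1 day exceeded that at 6 h by 0.77 ± 0.20 (adjusted p = 0.332), and the effect at 4 days exceeded that at 6 h by 0.44 ± 0.21 (adjusted p = 0.646). The effect at 4 days minus that at 1 day was -0.32 ± 0.21 (adjusted p = 1). None of these differences between times passed for any of the 9 genes, beside 0.00708%, 0.0142% and 0.00708% of all genes.

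**Figure D2:**
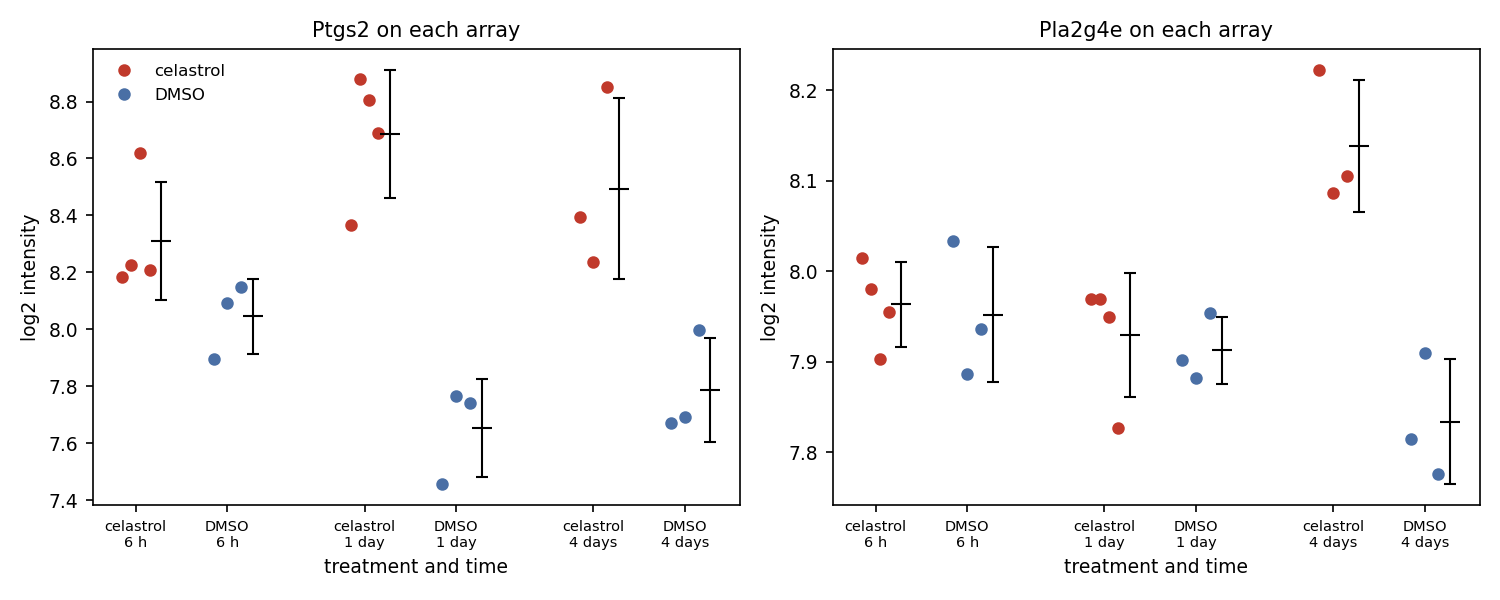
Log2 intensity of Ptgs2 (left) and Pla2g4e (right) on each of the 20 arrays, celastrol in red and DMSO in blue at 6 h, 1 day and 4 days, with the mean and SD of each group in black. Ptgs2 with celastrol lies above DMSO at each time, with 8.37 to 8.88 against 7.46 to 7.76 at 1 day, and Pla2g4e separates only at 4 days, with 8.09 to 8.22 against 7.78 to 7.91.

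The terminal synthases followed. Ptges, the microsomal prostaglandin E synthase that is induced along with cyclooxygenase-2 and supplies the prostaglandin E2 of fever, did not pass at any time. At 6 h it measured 8.73, 8.75, 8.81 and 8.72 with celastrol, against 8.63, 8.68 and 8.65 with DMSO. The groups did not overlap, but the difference was 0.10 ± 0.07 (adjusted p = 0.711). At 1 day it measured 8.79, 9.07, 8.84 and 8.77 with celastrol, against 8.83, 8.64 and 8.79 with DMSO, a difference of 0.11 ± 0.07 (adjusted p = 0.679). The groups overlapped and celastrol replicate 2 was the highest array. Without that array the difference was 0.04 ± 0.06 (adjusted p = 0.899). At 4 days it measured 8.79, 8.73 and 8.74 with celastrol, against 8.56, 8.76 and 8.57 with DMSO, a difference of 0.12 ± 0.07 (adjusted p = 0.838). The difference of Ptges was thus between 0.10 and 0.12 at each time, and the 95% interval reached 0.24 at 6 h, 0.25 at 1 day and 0.27 at 4 days. Ptges2, the constitutive membrane-associated synthase, ran between 8.33 and 8.68 over all arrays, with differences of -0.05, 0.00 and -0.03.

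Ptgds, the lipocalin-type prostaglandin D synthase, is made by meningeal cells, choroid plexus and oligodendrocytes and is also the carrier protein known as beta-trace. At 1 day it measured 12.89, 13.67, 12.86 and 12.93 with celastrol, against 12.78, 12.80 and 12.87 with DMSO. Replicate 2 stood far above the other 3 celastrol arrays, of which the lowest lay within the DMSO range. The difference was 0.27 ± 0.13 (adjusted p = 0.613), and 0.07 ± 0.06 (adjusted p = 0.789) without replicate 2. At 6 h Ptgds measured 12.90, 13.04, 12.88 and 12.98 with celastrol, against 12.83, 12.92 and 12.75 with DMSO, a difference of 0.12 ± 0.13. At 4 days it measured 13.06, 12.90 and 13.01 with celastrol, against 12.85, 12.91 and 12.91 with DMSO, a difference of 0.10 ± 0.14. Both times the groups overlapped and the difference did not pass.

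Meningeal genes were high on the same array. Of 8 tested marker genes of the meninges, 7 were higher on celastrol replicate 2 of 1 day than on the other 3 celastrol arrays, and 5 were highest there of all 20 arrays, namely Dcn, Igf2, Slc6a13, Aldh1a2 and Slc22a6. Over all tested genes, 683 (4.83%) were highest on that array. Igf2, a growth factor of the leptomeninges, measured 10.63 there, against 9.35 to 9.57 on the other 3. Slc6a13, a GABA transporter of meningeal cells, measured 9.89, against 8.31 to 8.56. The mean of the meningeal list was 9.35 on replicate 2 and 8.51 to 8.76 on the other 3 celastrol arrays, against 8.51 to 8.76 on the DMSO arrays of 1 day. At 6 h, 1 day and 4 days, 8, 6 and 0 of the 8 meningeal markers were higher with celastrol, beside 41.7%, 53.8% and 54.4% of all genes. Their median differences were 0.13, 0.11 and -0.08, while Ptgds differed by 0.12, 0.27 and 0.10. None of the 8 passed at any time. Of 7 choroid plexus markers, 3 were higher on replicate 2 than on the other 3 arrays, with Kcnj13 at 9.44 against 7.35 to 7.42. Ttr, the defining transcript of that tissue, was at 7.40, against 7.35 to 7.42, not far above the dim level of 7.04. The choroid plexus mean, which includes Kcnj13, was 8.04 on replicate 2, against 7.69 to 7.78 on the other 3 celastrol arrays. Of 11 oligodendrocyte markers, 1 was higher on replicate 2 than on the other 3. The part of these cells in the values of Ptgds and Ptges was not tested. Ptgs2 at 1 day differed by 0.97 ± 0.15 without replicate 2 (adjusted p = 0.0147).

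**Figure D3:**
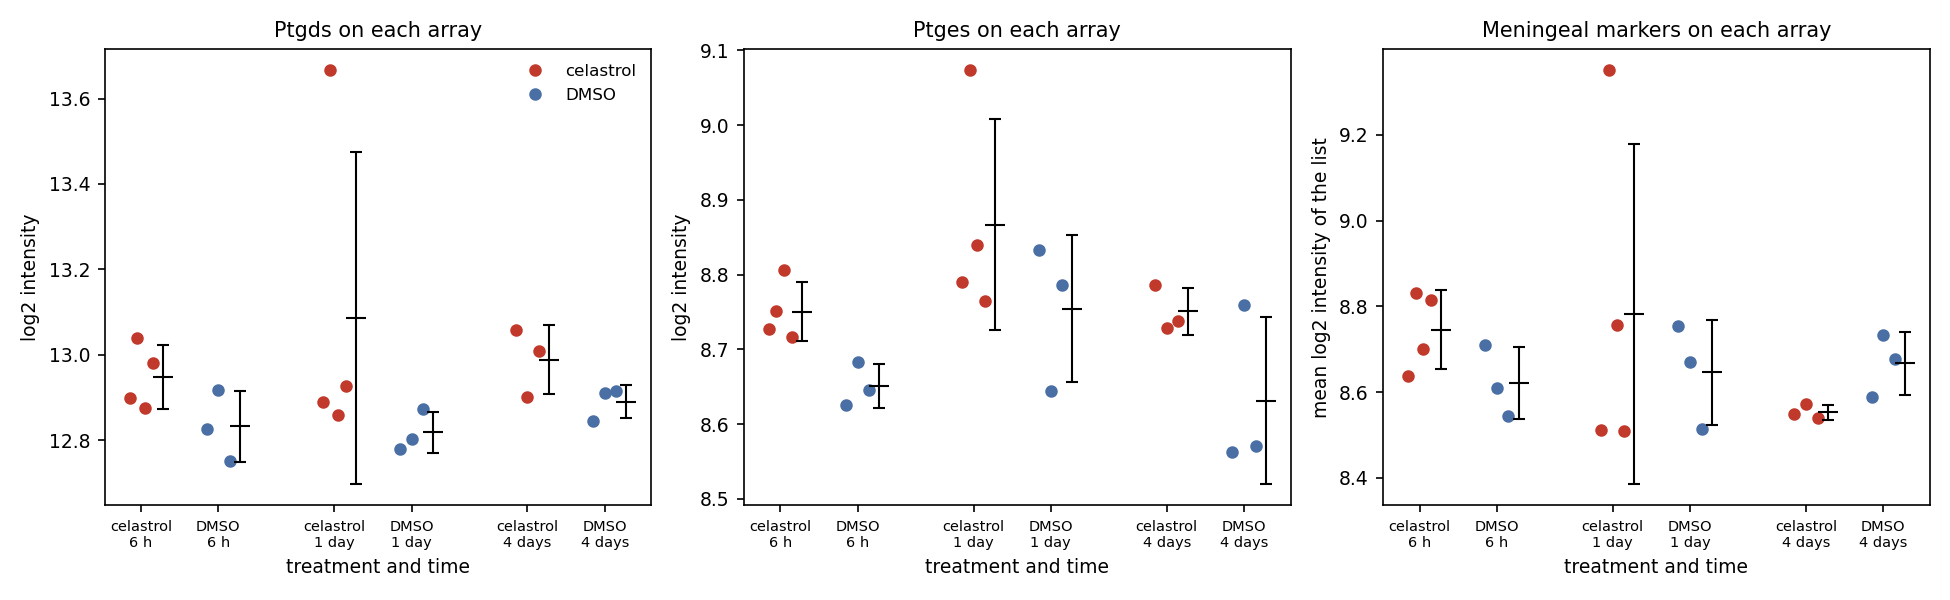
Log2 intensity of Ptgds (left) and Ptges (middle), and the mean log2 intensity of the meningeal marker genes (right), on each array, celastrol in red and DMSO in blue at 6 h, 1 day and 4 days, with the mean and SD of each group in black. Celastrol replicate 2 of 1 day is the highest of the 20 arrays in all 3 panels, at 13.67, 9.07 and 9.35.

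The receptors and the degrading enzyme stayed within narrow ranges. Ptger3 encodes EP3, the receptor through which prostaglandin E2 acts on preoptic neurons in fever. At 1 day it measured 7.74, 7.80, 7.76 and 7.80 with celastrol, against 7.73, 7.56 and 7.71 with DMSO. The groups did not overlap, though the lowest celastrol array exceeded the highest DMSO array only slightly, and the difference of 0.11 ± 0.05 did not pass (adjusted p = 0.614). At 6 h it measured 7.72, 7.58, 7.72 and 7.55 with celastrol, against 7.77, 7.68 and 7.77 with DMSO, so that the difference was -0.10 ± 0.05 (adjusted p = 0.673) and the groups overlapped. The effect at 1 day thus exceeded that at 6 h by 0.21 ± 0.07, which did not pass (adjusted p = 0.424, unadjusted 0.0107). At 4 days the difference was 0.04 ± 0.06.

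Ptger4 encodes EP4, a receptor that raises cAMP. It ran between 7.70 and 8.04 over all arrays, with overlapping groups and differences of 0.05, -0.02 and 0.03. Hpgd, the dehydrogenase that starts the inactivation of prostaglandins, ran between 8.26 and 8.73. At 4 days it measured 8.40, 8.26 and 8.26 with celastrol, against 8.45, 8.58 and 8.32 with DMSO. Celastrol replicate 1 lay within the DMSO range, and the difference of -0.14 ± 0.09 did not pass (adjusted p = 0.876). Its differences at 6 h and 1 day were -0.03 and 0.03.

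Other genes of the pathway were taken from a list of 67, of which 64 had a probe set and 49 were tested. None passed in limma at 6 h, where 24 were higher, as were 41.7% of all genes. At 1 day 19 were higher, as were 53.8% of all genes, and 1 passed, against 0.425%. At 4 days 27 were higher, as were 54.4% of all genes, and 1 passed, against 0.0637%. At both later times that gene was Cyp4f15. An unadjusted p under 0.05 was reached by 10 of the 49 at 6 h, 6 at 1 day and 5 at 4 days (over all genes 7.55%, 8.19% and 6.53%). The median difference of the 49 genes was -0.01, -0.01 and 0.01 at the 3 times. Mouse Cyp4f15 is a cytochrome P450 that hydroxylates eicosanoids such as leukotriene B4 and so belongs to their inactivation. At 1 day it ranged from 9.46 to 9.57 with celastrol, against 9.15 to 9.28 with DMSO, and rose by 0.33 ± 0.07 (adjusted p = 0.0278). At 4 days it ranged from 9.43 to 9.65 with celastrol, against 9.11 to 9.22 with DMSO, and rose by 0.40 ± 0.07 (adjusted p = 0.0413). At 6 h the order was the other way, with 9.17 to 9.46 with celastrol, against 9.47 to 9.64 with DMSO, without overlap, and the difference of -0.20 ± 0.07 did not pass (adjusted p = 0.582). The DMSO arrays were themselves lower at 1 day and at 4 days than at 6 h, without overlap. The effect at 4 days exceeded that at 6 h by 0.60 ± 0.10 (adjusted p = 0.0453), which includes the time difference in DMSO. These calls were not firm: of 20 fits that left out 1 array, 14 kept the one at 1 day, 7 that at 4 days and 3 the difference between times.

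The other groups of the pathway held no gene that passed. Of 13 other phospholipases tested, the smallest p was that of Pla2g2d at 6 h (0.20), Pla2g7 at 1 day (-0.14) and Pla2g3 at 4 days (0.28). Of 7 other synthases it was Hpgds, the hematopoietic prostaglandin D synthase, at 6 h (-0.17), and Gstm2 at 1 day (-0.14) and at 4 days (-0.40 ± 0.16, adjusted p = 0.658). Of 6 other receptors it was the thromboxane receptor Tbxa2r at 6 h (0.26) and Ptgfrn, a protein that binds the prostaglandin F receptor, at 1 day (0.21) and 4 days (0.17). The receptor genes Ptger2, Ptgfr and Ptgir lay below the dim level. Of 17 genes of other arachidonate routes it was the leukotriene B4 receptor Ltb4r1 at 6 h (0.23), Cyp2j6 at 1 day (0.12) and Alox5ap, which presents arachidonate to the lipoxygenase, at 4 days (0.16). The plot of these differences by gene group shows Cyp4f15 as the one filled point at 1 day and at 4 days.

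**Figure D4:**
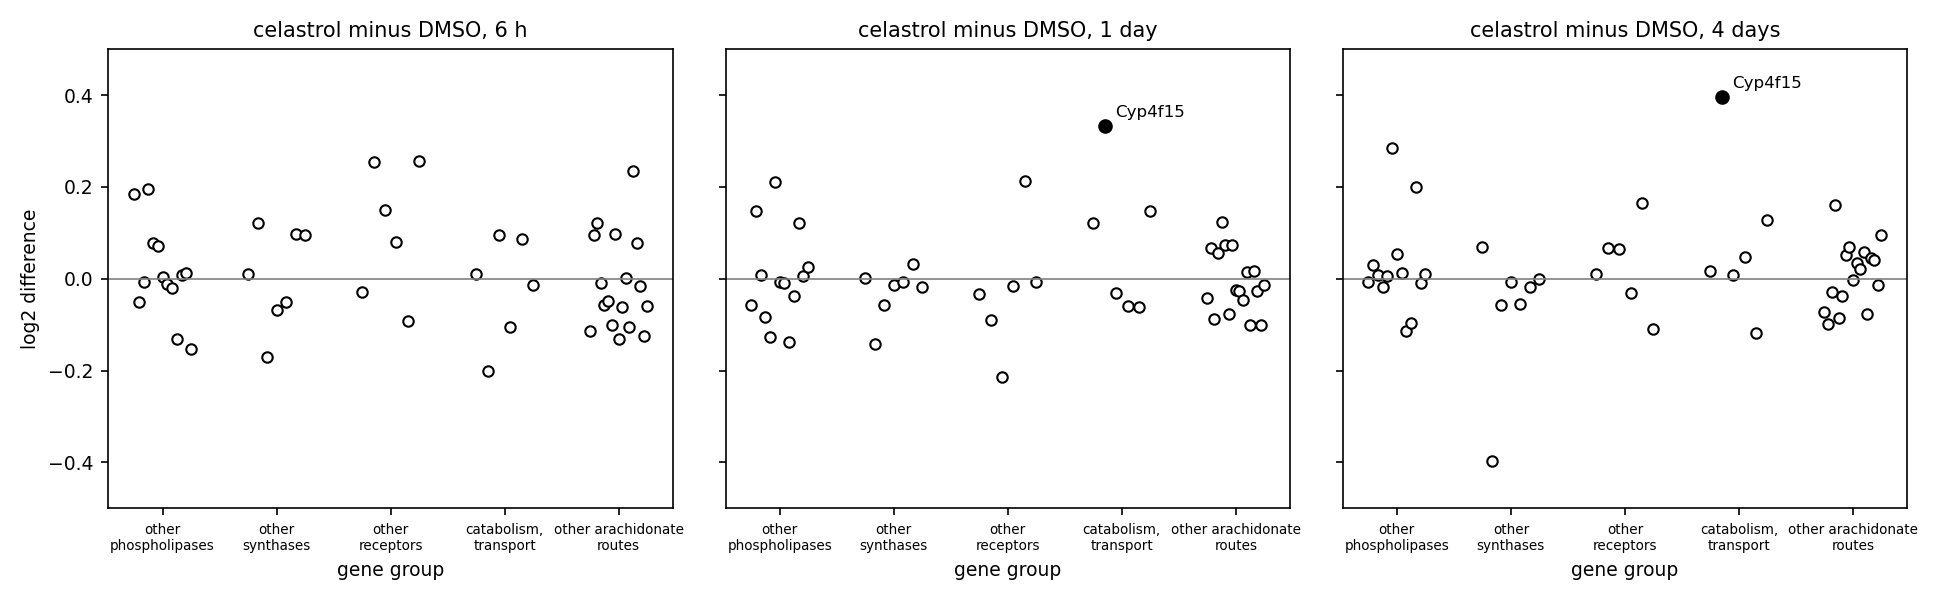
Log2 difference, celastrol minus DMSO, of 49 other pathway genes in 5 groups at 6 h, 1 day and 4 days, 1 point per gene. Filled points passed an adjusted p of 0.05. Cyp4f15 is the only such gene, with 0.33 at 1 day and 0.40 at 4 days, and the lowest point at 4 days is Gstm2 (-0.40).

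Genes known to induce or restrain Ptgs2 were described beside it. Like the other gene lists here, this list was chosen with earlier results of these arrays known. Its counts are thus a description and not independent evidence. Of 19 listed, 12 were tested. At 1 day 10 of them were higher, as were 53.8% of all genes, and 3 rose, against 0.361% of all genes. At 6 h 7 were higher and at 4 days 8, beside 41.7% and 54.4% of all genes, and at neither time did any pass in limma. An unadjusted p under 0.05 was reached by 2 of the 12 at 6 h, 6 at 1 day and 2 at 4 days. Nfkbia, which keeps NF-kB out of the nucleus and is itself an NF-kB target, ranged from 9.84 to 10.18 with celastrol, against 8.92 to 9.12 with DMSO, at 1 day. It rose by 0.93 ± 0.12 (adjusted p = 0.000986), and passed in all 20 fits that left out 1 array. At 4 days its difference was 0.68 ± 0.13 (adjusted p = 0.0501). Tsc22d3, the glucocorticoid-induced leucine zipper, rose at 1 day by 0.61 ± 0.12 (adjusted p = 0.0192, kept in 16 of 20 such fits). Zfp36, whose protein tristetraprolin promotes decay of Ptgs2 and cytokine messages, rose at 1 day by 0.39 ± 0.08 (adjusted p = 0.0442, kept in 4 of 20). The cytokine genes Il1b, Il6 and Tnf lay below the dim level, as did Cebpd and Anxa1, and Il1r1 and Nfkb1 were not analysed here. Of 13 tested immediate early genes, which mark recent neuronal activity and to which neuronal Ptgs2 is often counted, none passed at any time, and 1 at 6 h, 1 at 1 day and 0 at 4 days had an unadjusted p under 0.05 (over all genes 7.55%, 8.19% and 6.53%). The nearest was Arc at 1 day, with -0.24 ± 0.05 (adjusted p = 0.0534).

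The genes whose pattern over the 20 arrays was most like that of Ptgs2 were Tgm2, a transglutaminase (Pearson r 0.94), Gpr6, an orphan G protein-coupled receptor (0.90), Acer2, an alkaline ceramidase (0.89), Slc2a1, which carries glucose across brain endothelium (0.89), and Fkbp5, a glucocorticoid-responsive co-chaperone (0.88). Arrays of a group share their treatment, so any gene that differs between the same groups scores high. Genes picked for likeness over these same arrays share the group pattern by that choice. Their values below are a description and not separate evidence. As with Ptgs2, the DMSO means of all these genes were lower at 1 day than at 6 h, and their celastrol means were higher. For Acer2 the DMSO mean was 9.082 at 6 h and 8.595 at 1 day, and the celastrol mean 9.203 and 9.472. For Slc2a1 these were 12.55 and 12.27 with DMSO, and 12.67 and 12.75 with celastrol. At 1 day the differences of these genes were 0.64 ± 0.10 for Tgm2 (adjusted p = 0.00452), 0.63 ± 0.09 for Gpr6 (0.00406), 0.88 ± 0.11 for Acer2 (0.000986), 0.48 ± 0.09 for Slc2a1 (0.0205) and 0.88 ± 0.17 for Fkbp5 (0.0256). Of 20 fits that left out 1 array, those of Tgm2, Gpr6 and Acer2 passed in all 20 and those of Slc2a1 and Fkbp5 in 15. Acer2 had several probe sets, and its difference was 0.37 with their mean in place of the brightest. For Pla2g4e they were Nelfa (0.76), Plppr1 (0.75), Itih3 (0.71), Fyb (0.69) and Csf3r (0.69). Of these, Fyb, an adaptor protein of leukocytes, rose at 4 days by 0.42 ± 0.07 (adjusted p = 0.0257, kept in 17 of 20 such fits), and Csf3r, a cytokine receptor of granulocytes, by 0.30 ± 0.05 (adjusted p = 0.0413). The DMSO means of both were lower at 4 days than at 6 h, 7.468 against 7.706 for Fyb and 7.526 against 7.716 for Csf3r. Their celastrol means at 4 days were 7.89 and 7.822. At 6 h celastrol minus DMSO was -0.17 for Fyb and -0.08 for Csf3r (limma adjusted p 0.604 and 0.69). For the other 3 genes like Pla2g4e, the differences at 4 days lay between 0.10 and 0.17 and did not pass.

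Markers of cells in which Ptgs2 and Pla2g4e could lie gave the following values. Of 12 tested endothelial markers, Slc2a1 rose at 1 day and the tight junction gene Cldn5 fell by 0.61 ± 0.10 (adjusted p = 0.00857), while the mean of the list ran between 9.33 and 9.48 with celastrol at 1 day, against 9.39 to 9.46 with DMSO, and between 9.25 and 9.59 with celastrol at 4 days, against 9.47 to 9.49 with DMSO. Of 10 tested microglial markers and 8 of mural cells, none passed at any of the 3 times. Unadjusted p under 0.05 was reached by 0, 3 and 4 of the microglial genes and by 3, 0 and 0 of the mural ones at 6 h, 1 day and 4 days (over all genes 7.55%, 8.19% and 6.53%). The microglial mean ran between 9.45 and 9.59 with celastrol at 1 day, against 9.50 to 9.60 with DMSO, and between 9.44 and 9.71 with celastrol at 4 days, against 9.47 to 9.59 with DMSO. Perivascular macrophages are a known site of Ptgs2 in inflamed brain. Of 8 of their markers, 5 lay below the dim level, Mrc1 and Cd163 among them, and the 3 tested, Lyve1, F13a1 and Stab1, were higher with celastrol at each time, with medians of 0.05, 0.09 and 0.12. Over all genes 41.7%, 53.8% and 54.4% were higher. The DMSO means of the 3 were themselves lower at 1 day and at 4 days than at 6 h, with median differences of -0.07 and -0.10. None of the 3 passed in limma, and an unadjusted p under 0.05 was reached by 0, 0 and 1 of them. Their mean was 7.64 to 7.71 with celastrol at 6 h, against 7.48 to 7.67 with DMSO, 7.53 to 7.69 at 1 day, against 7.43 to 7.57, and 7.47 to 7.70 at 4 days, against 7.43 to 7.57, overlapping each time. Of 10 neutrophil genes, 7 lay below the dim level, S100a8, S100a9 and Ngp among them, and 3 were tested. At 4 days Csf3r rose, while the differences of Camp (-0.06, unadjusted p = 0.604) and Mmp9 (-0.11, unadjusted p = 0.0491) lay below 0 and did not pass, and the median of the 3 was -0.06. The neutrophil mean was then 7.41 to 7.49 with celastrol, against 7.39 to 7.44 with DMSO. Oligodendrocyte connexin genes were lower with celastrol: Gjc3 fell by 0.30 at 1 day and by 0.33 at 4 days (adjusted p 0.0192 and 0.0413), and Gjb1 fell by 0.25 and by 0.31 (0.0385 and 0.0429). The oligodendrocyte mean was 10.81 to 10.98 with celastrol at 1 day, against 10.99 to 11.11 with DMSO, a narrow gap. At 4 days it was 10.83 to 11.02 with celastrol, against 11.06 to 11.15 with DMSO, again without overlap. At 6 h it was 10.92 to 11.02 with celastrol and 10.91 to 11 with DMSO. The DMSO arrays of 4 days thus lay above those of 6 h, and the DMSO arrays of 6 h overlapped the later celastrol arrays. Of 11 astrocyte markers Sox9 fell at 1 day, and no neuronal marker passed. An unadjusted p under 0.05 was reached by 1, 4 and 3 of the astrocyte markers and by 1, 1 and 0 of the neuronal ones at the 3 times. For 11 oligodendrocyte markers these counts were 0, 4 and 6, and for the 12 endothelial ones 2, 4 and 4. Of 20 fits that left out 1 array, the call of Cldn5 was kept in 19, that of Slc2a1 in 15, that of Sox9 in 5 and that of Csf3r in 6, while those of Gjc3 were kept in 15 at 1 day and 5 at 4 days and those of Gjb1 in 8 and 5. The part of these cells in the results on Ptgs2 and Pla2g4e was not tested.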

How the data were processed

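Total RNA of the hypothalamus was measured on 20 Affymetrix Mouse Gene 1.0 ST arrays in 6 groups of 3 or 4, grouped by the labels. The table that the authors deposited gives, for 23492 probe sets, a log2 intensity on each array. RMA, which corrects background, quantile normalizes arrays and summarises probe sets, is named per the submitters' processing notes, and its version is not given in the sources used here. Array medians lay between 8.60 and 8.65.

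Probe sets were named by the platform annotation. 20228 had exactly 1 symbol, 1399 had several and 1865 had none, and only those with 1 entered the comparisons. Of 18704 genes, 809 had several probe sets, and the brightest over all arrays stood for the gene. Genes below the 25th percentile of mean intensity (log2 7.04) were left out, and 14129 were tested. Differences were fitted with limma 3.58.1 in R 4.3.3 in 1 model with a mean for each group, no covariate (the labels give no batch), eBayes moderation with 14 residual degrees of freedom, and Benjamini-Hochberg adjustment over all genes tested with a threshold of 0.05. Tests were two-sided, and each adjusted p in the text is limma's. The number of arrays limits the precision. The labels name nothing that same-numbered arrays share. For 1 of 15 pairs of groups, DMSO at 6 h and DMSO at 1 day, the deviations of every same-numbered pair correlated above 0.1 (0.236 to 0.518 over 3 pairs), so that comparison was also fitted with these pairs as a block. Deviations from a group mean depend on each other, so these 3 correlations are not independent, and replicate 3 stood apart in both groups. The procedure was tested on simulated data.

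The members and the gene lists were chosen with earlier results of these data known. Of genes that are not members, those named are the ones past the threshold in a list, the smallest p of each pathway list at each time, the 5 genes most correlated with a member past the threshold or with an unadjusted p under 0.01, and markers that touch a member. Bcl2l1, Tbc1d2b and the other cell markers with values were named after their values were seen. Symbols that have changed were matched by their current form. Promoter sequences are RefSeq's for GRCm38.p6. The array table names no genome build, so no position is given for a probe set. Alternatives were no dim filter, the mean of a gene's probe sets, arrays centred on their medians, arrays quantile normalized again, the replicate number as a block, only the groups compared in the fit, leaving out the 2 arrays that stand apart, and leaving out each array in turn.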

Additional observations from a re-analysis of the deposited data

Results flagged for a closer look

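Only celastrol at 6 h and celastrol at 1 day held 4 arrays, and over the 9 genes this gave 18 sets of 4 values. Each set was examined for an array far from the others. Chance alone gives about 1 such array in 20 independent sets, but these sets share the same arrays. Celastrol replicate 3 of 6 h was high for Ptgs2, at 8.62, with a gap to the next array of 0.904 of the group's whole range. Celastrol replicate 2 of 1 day was high for Ptgds, at 13.67 (0.916). Celastrol replicate 4 of 1 day was low for Hpgd, at 8.34 (0.885), and for Pla2g4e, at 7.83 (0.86).

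For Cyp4f15 the difference of the celastrol effect between times passed the threshold by the test of the difference itself. The effect at 4 days exceeded that at 6 h by 0.60 on the log2 scale (limma adjusted p = 0.0453). The call was not firm: it was kept in 3 of 20 fits that left out 1 array (limma adjusted p 0.0176 to 0.254). The DMSO arrays were themselves lower at 4 days than at 6 h, and the difference between times includes that.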

How the results depend on the processing

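At 6 h none of the 9 genes passed under any alternative run, and Ptgs2 passed at 1 day under all of them, with 1 gene past the threshold each time and differences of 0.93 to 1.14 when 1 array was left out. At 4 days the count of 1 became 0 with no filter on dim probe sets, with arrays quantile normalized again, with only the groups compared in the fit and without the arrays that stand apart, and 0 to 1 when 1 array was left out. Pla2g4e, with a difference of 0.31, missed the threshold under the same alternatives (0.31 in each, adjusted p 0.0781, 0.0556, 0.301 and 0.0501) and lay between 0.26 and 0.34 when 1 array was left out. The causes were not tested. DMSO at 6 h and DMSO at 1 day were the only pair of groups in which every same-numbered pair correlated above 0.1. Of all 46 same-numbered pairs 13 correlated above 0.1 (-0.356 to 0.518), and 7 of 20 arrays correlated best with an array of their own number. With the replicate number as a block, 2 of the 9 genes passed at 4 days, Pla2g4e (adjusted p = 0.0372) and Ptgs2 (0.71, adjusted p = 0.0282). Over all genes, the 9 calls at 4 days became 2 with no filter, 5 with quantile normalization and 2 with only the groups compared, and 0 to 20 when 1 array was left out, and the 60 at 1 day became 18 to 85. For the effect at 4 days minus that at 6 h, 2 calls became 1 with quantile normalization and 0 with no filter, centred arrays, the block, only the groups compared or without the arrays that stand apart. For the effect at 1 day minus that at 6 h, 1 call became 0 with the block and with only the groups compared. For DMSO at 1 day minus 6 h, 14 calls became 59 with the DMSO pairs of these times as a block in the fit of all groups and 6 with that block and only these groups (alternatives chosen after seeing the data), 24 with no filter, 46 with quantile normalization, 0 with only the groups compared and 1 without the arrays that stand apart. For DMSO at 4 days minus 6 h, 4 calls became 16 with quantile normalization, 1 with the block, 0 with only the groups compared and 1 without the arrays that stand apart. Cyp4f15 lost its call at 4 days under 5 and the difference between times under 6 of the 7 alternatives other than leaving out 1 array. No named gene that passed the threshold changed its direction under any alternative run. Small differences that did not pass could change sign. Without celastrol replicate 2 of 1 day, the difference at 1 day was -0.01118 for Pla2g4a and 0.003687 for Ptges2, against 0.01956 and -0.002751 with all arrays.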
